A study of Mus musculus with 9 samples.

Results

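Transcripts of 9 mouse genes were followed: the IgG receptors Fcgr1, Fcgr2b, Fcgr3 and Fcgr4, the neonatal Fc receptor gene Fcgrt, the ITAM adaptors Fcer1g and Tyrobp, and the kinases Syk and Lyn. The genes were taken by symbol from a count table of 50508 gene rows. All 9 were found, and all 9 passed the filter on low counts that left 14708 genes for testing. The libraries came from spleens of naive, untreated 8-week-old mice homozygous for Zbtb46-GFP, a reporter allele in which green fluorescent protein reports use of Zbtb46, a transcription factor gene of conventional dendritic cells. Every group carried this allele. Conventional T cells (T), conventional dendritic cells (DC) and a population labelled TDC were sorted, with 3 libraries each. Spleens were pooled from 5 mice for replicate 1 of each group and from 6 mice for the others, so p-values measure the spread between pools. No label gives the sorting gates.

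Fc gamma receptors bind the constant part of IgG. In the mouse, Fcgr1, Fcgr3 and Fcgr4 encode ligand-binding chains of activating receptors, which reach the cell surface and signal with the FcR gamma chain encoded by Fcer1g. That chain and DAP12, the product of Tyrobp, carry immunoreceptor tyrosine-based activation motifs (ITAMs). Src family kinases such as Lyn phosphorylate these tyrosines, and Syk then docks on them and passes the signal to adaptors and to phospholipase C gamma. Fcgr2b encodes the inhibitory receptor, which carries an immunoreceptor tyrosine-based inhibitory motif (ITIM), recruits the phosphatase SHIP-1 and does not need the gamma chain. FcRn, the product of Fcgrt with beta-2 microglobulin, binds IgG inside the cell and recycles it. Macrophages and dendritic cells of the spleen use these receptors to take up IgG-coated cells and complexes, and T cells signal through Zap70 and the CD3 chains.

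The low-affinity receptor genes and Fcer1g lie near each other on mouse chromosome 1. In the GENCODE M21 annotation of GRCm38, Fcgr2b spans chr1:170958617-170976547 (minus strand), Fcgr4 spans chr1:171018920-171029761 (plus strand), Fcgr3 spans chr1:171051174-171064935 (minus strand) and Fcer1g spans chr1:171229572-171234365 (minus strand). The high-affinity receptor gene Fcgr1 lies apart at chr3:96282909-96293969 (minus strand). Fcgrt is at chr7:45092990-45103851 (minus strand), Tyrobp at chr7:30413760-30417585 (plus strand), Syk at chr13:52583173-52648792 (plus strand) and Lyn at chr4:3678115-3813122 (plus strand). Bases just before the annotated start are printed for the Fc gamma receptor genes, including Fcgr1, which lies outside this cluster. Those of Fcer1g are not printed. The stretches come from RefSeq promoter windows on GRCm38.p6, are written 5′ to 3′ on the strand of the gene and leave out exon bases; a RefSeq start can lie inside the longer GENCODE span. Capitals mark TTCCTC, which reads GAGGAA on the other strand, the letters at the core of many binding sites of the myeloid factor PU.1. They come from chr3:96293970-96294069 for Fcgr1, chr1:171059404-171059503 for Fcgr3, chr1:171018826-171018919 for Fcgr4 and chr1:170976128-170976171 for Fcgr2b.

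Fcgr1: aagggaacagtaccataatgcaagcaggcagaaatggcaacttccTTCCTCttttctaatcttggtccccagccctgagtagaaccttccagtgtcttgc

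Fcgr3: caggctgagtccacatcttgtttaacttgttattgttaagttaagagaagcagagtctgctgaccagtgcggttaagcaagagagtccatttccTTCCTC

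Fcgr4: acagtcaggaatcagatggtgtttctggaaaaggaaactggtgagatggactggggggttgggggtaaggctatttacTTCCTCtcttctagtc

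Fcgr2b: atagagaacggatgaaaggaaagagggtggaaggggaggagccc

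The letters GAGGAA were searched on both strands in windows from 250 bases before to 50 bases after each start, and 28.3% of 32851 such mouse windows held them. Of the 9 members, 7 had a window. The letters were found for 4 members, beginning 55 bases upstream of the start in Fcgr1, 6 in the Fcgr3 stretch shown (15 from another annotated start) and 22 in Fcgr4. In 1 of the windows of Syk they began 9 bases upstream, inside an annotated Syk exon. The 28.3% counts windows, whereas these 7 members had 9 windows between them. They were not found in the windows of Fcgr2b, Fcgrt and Fcer1g. A match describes letters only and says nothing of whether a factor binds there.

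Libraries held 10986544 to 18071425 reads for T, 14973484 to 25676640 for DC and 14594850 to 22677130 for TDC. Levels are given as TMM-normalised CPM, that is, read counts scaled to library size and composition. Since QuantSeq counts transcripts near their 3′ end, levels have no length term, but capture can differ between genes, so levels of different genes compare only roughly. In each member, none of the 50-base stretches in the last 300 bases of its annotated transcript occurred in another gene. Exons of Fcgr2b overlap those of Gm38204 and exons of Lyn those of Gm26857 on the opposite strand, and no label says whether the counting used strand. A total of 3 reads over a group, the floor used for lower bounds, was worth 0.0557 CPM in T, 0.0524 in DC and 0.0706 in TDC, with counting error alone in view. Reads on ribosomal protein genes made up 3.69% to 4.64% of the total in T, 1.13% to 2.53% in DC and 0.458% to 0.933% in TDC.

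Levels of cell type markers in the sorted populations are given beside the comparisons of these genes. Of 12 red pulp macrophage markers, 12 had reads in TDC, with sums of 52561 to 82825 CPM, against 189 to 317 CPM in DC and 3.38 to 7.75 CPM in T. Conventional DC markers summed to 3051 to 5515 CPM in TDC and 21262 to 39734 CPM in DC. Most of that sum in TDC came from H2-Ab1 (mean 3404 CPM, against 26289 in DC) and Irf8 (782 against 789). Every other marker on the DC list had a lower mean in TDC than in DC, among them Flt3 (37.6 against 568 CPM) and Zbtb46 (7.95 against 67.1). T cell markers summed to 82.7 to 266 CPM in TDC and 6745 to 9160 CPM in T. B cell markers summed to 75.6 to 135 CPM in TDC and 218 to 297 CPM in DC. Monocyte markers spanned 36.5 to 269 CPM in TDC and 94.8 to 272 CPM in DC, while erythroid markers reached 538 to 1834 CPM in TDC and at most 20.6 CPM in DC. Plasmacytoid DC markers summed to 264 to 467 CPM in TDC, 159 to 173 CPM in DC and 173 to 211 CPM in T. Bst2 had the largest part of that sum in TDC (mean 253 CPM, against 68.2 in DC and 120 in T). Siglech averaged 17.1 CPM in TDC and 13.6 in DC, Tcf4 69.1 and 65.2, Cox6a2 3.16 and 0.25, and Ccr9 7.05 and 18.2. Platelet markers summed to 12.3 to 18.5 CPM in TDC and 0 to 3.67 CPM in DC. Nearly all of the TDC sum was Pf4 (mean 15.1 CPM, against 0.275 in DC). Itga2b (0.280 against 1.49) and Gp9 (0.0806 against 0.203) had lower means in TDC than in DC. Ppbp had 4 reads in TDC and none in DC, and Gp1bb had none in either group. Natural killer cell markers stayed at or below 3.50 CPM and mast cell and basophil markers at or below 3.23 CPM in TDC. Neutrophil markers reached 66.5 CPM in TDC replicate 1, 5.69 in replicate 2 and 0.298 in replicate 3, mainly S100a8 and S100a9, and Ly6g, Camp and Ltf had no reads there. The part of these markers in the results on Fc receptor and ITAM genes was not tested.

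TDC carried higher levels of the activating Fc gamma receptor, FcRn and FcR gamma chain transcripts than DC. The inhibitory receptor transcript was lower in every TDC library than in every DC library, a difference that was not called, and higher than in T. All 9 genes were higher in TDC than in T and 8 of 9 were higher in DC than in T. Between TDC and DC, 5 genes were higher in TDC: Fcgr1, Fcgr3, Fcgr4, Fcgrt and Fcer1g. Fcgr2b, Tyrobp, Syk and Lyn were not called in that comparison, in which 0 members were lower by edgeR, 1 at an unadjusted p under 0.05, and 1 by DESeq2 and by limma-voom. A gene is called at an adjusted p under 0.05 (quasi-likelihood test of edgeR, Benjamini-Hochberg over all genes tested). Of all genes tested, 33.0% were called in TDC against T (21.8% higher, 11.2% lower), 23.8% in DC against T (15.4% higher, 8.41% lower) and 14.1% in TDC against DC (9.55% higher, 4.60% lower). In bulk libraries, fewer cells with a transcript and less of it per cell cannot be told apart.

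Compared library by library, 6 of 9 genes had all TDC libraries above all DC libraries (20.1% of all genes), 1 of 9, Fcgr2b, had all TDC libraries below (14.8% of all genes), and Tyrobp and Syk overlapped. The median log2 fold change over the 9 genes was 2.09 for TDC against DC, where the median over all genes was 0.01. For TDC against T it was 9.03, with 0.14 over all genes. For DC against T it was 7.91, or 6.40 with genes absent from T at their lower bound, with 0.08 over all genes. The comparisons share libraries, so their values are not independent.

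**Figure D1:**
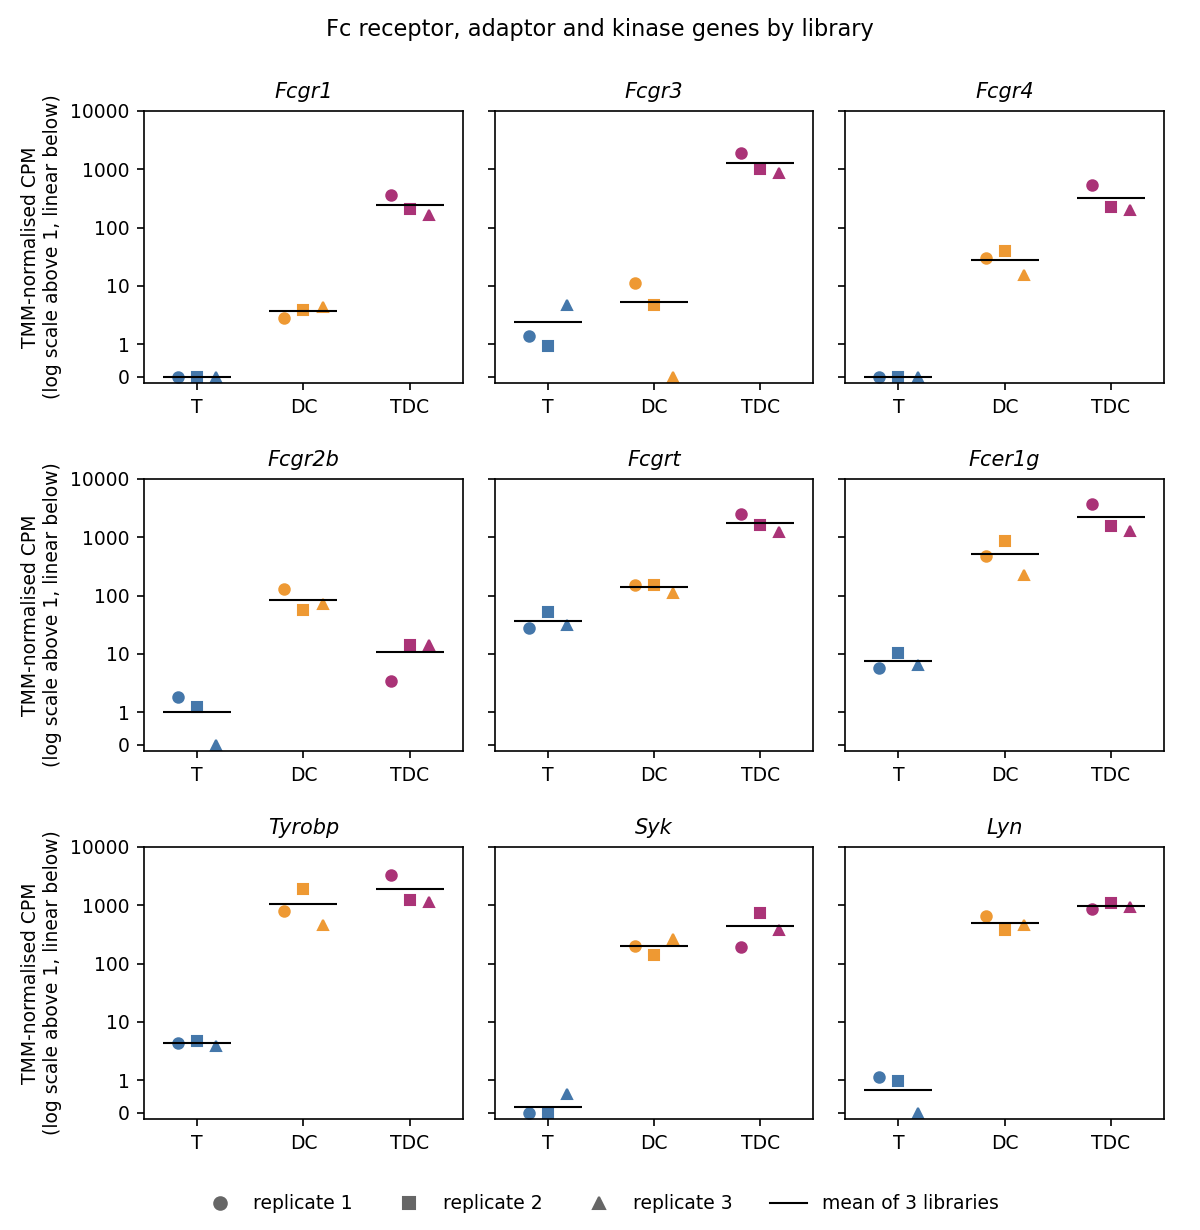
TMM-normalised CPM of each of the 9 genes (vertical axis, logarithmic above 1 CPM and linear below) in the 3 T, 3 DC and 3 TDC libraries; symbols mark replicates and lines the mean of 3 libraries. Fcgr1, Fcgr3, Fcgr4 and Fcgrt sit highest in all TDC libraries, Fcgr2b sits highest in all DC libraries, and Tyrobp and Syk overlap between DC and TDC.

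Fcgr3, which encodes the low-affinity activating receptor CD16, had the highest level of the Fc gamma receptor genes in TDC. It stood at 1899.8, 998 and 851 CPM in TDC replicates 1, 2 and 3, at 11.4, 4.74 and 0 CPM in DC and at 1.41, 0.938 and 4.79 CPM in T. All TDC libraries lay far above every other library, while DC and T overlapped and DC replicate 3 had no read. The mean was 233 times higher in TDC (log2 fold change 7.85 ± 1.41 SE, edgeR adjusted p = 0.0049). Leaving out DC replicate 1, which held most of the DC reads, gave a log2 fold change of 9.06 (edgeR adjusted p = 0.0114). TDC against T gave 9.03 ± 1.48 SE (edgeR adjusted p = 0.00117), or 10.07 without T replicate 3. DC against T was not called (log2 fold change 1.18 ± 1.10 SE, edgeR adjusted p = 0.50), and its sign rested on DC replicate 1, without which it was -0.03.

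Fcgr1 encodes the high-affinity receptor CD64. It had no read in any T library, 2.79, 3.9 and 4.41 CPM in DC and 358, 211 and 163 CPM in TDC. The 3 DC libraries were low and close together, and the lowest TDC library stood well above them. Fcgr1 was 65.9 times higher in TDC than DC libraries (log2 fold change 6.04 ± 0.47 SE, edgeR adjusted p = 0.000268). Against T, at the floor of 3 reads over the group, it was at least 4382-fold higher in TDC (edgeR adjusted p = 6.75e-06) and at least 66.5-fold higher in DC (edgeR adjusted p = 0.000116).

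Fcgr4 encodes a mouse activating receptor that binds IgG2a and IgG2b with intermediate affinity. Like Fcgr1 it had no read in T, and it stood at 29.9, 38.9 and 15.3 CPM in DC and 545, 223 and 199 CPM in TDC. The groups did not overlap, and TDC replicate 1 was the highest library. TDC exceeded DC 11.5-fold (log2 fold change 3.52 ± 0.55 SE, edgeR adjusted p = 0.00429), or by 2.93 on the log2 scale without TDC replicate 1. It was at least 5790.1-fold higher in TDC than in T (edgeR adjusted p = 2.25e-05) and at least 503-fold higher in DC than in T (edgeR adjusted p = 8.85e-05). In DC it had the highest mean of the activating receptor genes, at 28 ± 11.9 CPM (SD, n = 3) against 5.37 ± 5.71 CPM for Fcgr3 and 3.7 ± 0.827 CPM for Fcgr1.

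Fcgr2b, the inhibitory receptor gene, had its highest levels in DC. It stood at 128, 56.3 and 70.8 CPM in DC, 3.41, 14.3 and 14.5 CPM in TDC and 1.83, 1.23 and 0 CPM in T. Every TDC library lay below every DC library and above every T library, and TDC replicate 1, the highest for the activating receptors, was the lowest in its group. Its mean was 7.91 times lower in TDC than in DC, but this was not called (log2 fold change -2.98 ± 0.93 SE, edgeR adjusted p = 0.0578). It was called in 6 of 19 alternatives, with adjusted p = 0.00698 by DESeq2, 0.0137 by limma-voom and 0.0109 by edgeR without T replicate 3, over a range of 0.00698 to 0.165. DC exceeded T by 6.40 ± 1.10 SE on the log2 scale (edgeR adjusted p = 0.00194). TDC exceeded T by 3.42 ± 0.98 SE (edgeR adjusted p = 0.022), a call lost without T replicate 2 (0.0611), TDC replicate 2 (0.0598) or TDC replicate 3 (0.0609), all by edgeR. Without T replicates 1 and 3 in turn, DC against T was 7.08 and 5.80, and TDC against T was 4.11 and 2.83. With limma-voom the log2 fold changes were 7.75 and 4.66.

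The makeup of the Fc gamma receptor transcripts differed between DC and TDC. Fcgr2b took 74.3% (95% Clopper-Pearson interval 73.0% to 75.6%), 54.2% (51.7% to 56.8%) and 78.3% (76.1% to 80.3%) of the reads on the 4 Fcgr genes in DC replicates 1, 2 and 3. In TDC it took 0.122% (0.0860% to 0.167%), 0.991% (0.874% to 1.12%) and 1.18% (1.02% to 1.35%). The intervals cover counting error only, and the DC and TDC shares did not overlap. Within TDC the shares of the activating genes were alike across libraries, with Fcgr3 at 67.7% to 69.3%, Fcgr4 at 15.4% to 19.4% and Fcgr1 at 12.8% to 14.6%. In DC, Fcgr4 took 16.9% to 37.4% and Fcgr3 from 0 to 6.62%, where 0 of 1518 reads in DC replicate 3 allows up to 0.243%. T libraries had only 44 to 93 reads on these genes, on Fcgr2b and Fcgr3 alone.

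**Figure D2:**
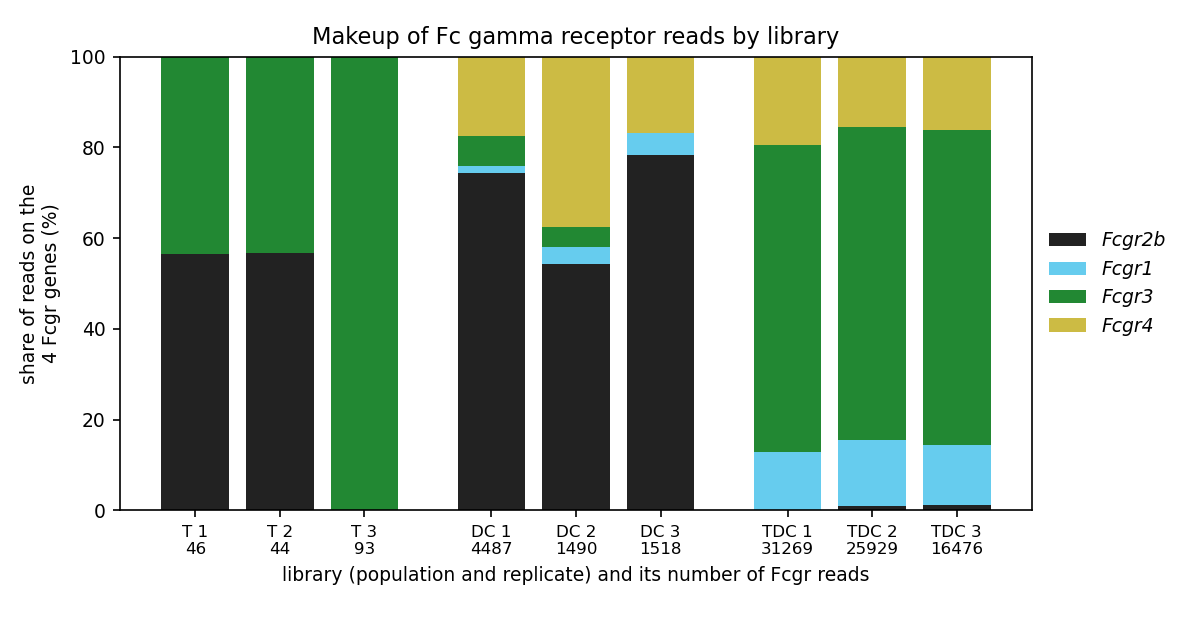
Share of reads (percent, vertical axis) that fell on each of the 4 Fc gamma receptor genes in each library, with the number of such reads under each bar. Fcgr2b takes 54.2% or more in every DC library and 1.18% or less in every TDC library, where Fcgr3 takes 67.7% or more; the T bars rest on 44 to 93 reads.

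Within a library, the log2 ratio of Fcgr1, Fcgr3 and Fcgr4 together to Fcgr2b (each with 1 CPM added) was -1.51, -0.24 and -1.80 in DC and 9.31, 6.55 and 6.30 in TDC. In T it was -0.23, -0.21 and 2.53, with both terms near the floor. TDC exceeded DC by 8.57 on the log2 scale, more than the spread within the groups (pooled SD 1.32), with no overlap. An exact two-sided permutation test gave p = 0.1, the smallest that 3 against 3 libraries allow, and 0.133 after adjustment over the 12 ratio comparisons. DC lay 1.88 below T in the same ratio and TDC 6.69 above T, each with an exact permutation p = 0.1 (0.133 adjusted). Without T replicate 3, whose Fcgr2b had no read, DC lay 0.96 below T.

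Fcgrt, the gene of the FcRn heavy chain, stood at 27.3, 52.9 and 31.5 CPM in T, 151, 152 and 109.5 CPM in DC and 2456, 1588 and 1244 CPM in TDC. The groups were ordered T, DC, TDC with no overlap between neighbours. TDC exceeded DC 12.8-fold (log2 fold change 3.68 ± 0.40 SE, edgeR adjusted p = 0.000436) and T 47.3-fold (5.56 ± 0.44 SE, edgeR adjusted p = 1.28e-05). DC exceeded T 3.69-fold (1.88 ± 0.37 SE, edgeR adjusted p = 0.0044). B2m, whose product is the light chain of FcRn and of class I molecules, averaged 4905 ± 1758 CPM in T, 3849.8 ± 1783 in DC and 5486 ± 2272 in TDC (SD, n = 3), was not called in TDC against DC (edgeR adjusted p = 0.508) and overlapped between the groups.

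Fcer1g, the adaptor of the activating receptors, had the highest mean of the 9 genes in TDC, at 2187 ± 1357 CPM (SD, n = 3). It stood at 5.7, 10.5 and 6.44 CPM in T, 468, 848 and 229 CPM in DC and 3744, 1564 and 1253 CPM in TDC. The lowest TDC library exceeded the highest DC library, but both groups were wide. TDC exceeded DC 4.25-fold (log2 fold change 2.09 ± 0.56 SE, edgeR adjusted p = 0.0312). This call was lost in edgeR without DC replicate 1 (adjusted p = 0.098), DC replicate 3 (0.0711) or TDC replicate 1 (0.0838, log2 fold change 1.48), and when DC and TDC were fitted without T (0.053). Both groups were far above T, by 6.09 ± 0.67 SE on the log2 scale in DC (edgeR adjusted p = 0.000111) and 8.18 ± 0.74 SE in TDC (edgeR adjusted p = 2.82e-05), the latter 7.57 without TDC replicate 1.

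Tyrobp, the gene of DAP12, was high in DC and TDC. It stood at 4.36, 4.69 and 3.81 CPM in T, 795, 1853 and 453 CPM in DC and 3257, 1242 and 1144 CPM in TDC. DC replicate 2 exceeded TDC replicates 2 and 3, so the groups overlapped. The log2 fold change of TDC against DC was 0.86 ± 0.54 SE and was not called (edgeR adjusted p = 0.34), and it was 0.24 without TDC replicate 1 and 1.51 without DC replicate 2. Against T it was 7.91 ± 0.73 SE in DC (edgeR adjusted p = 4.12e-05), or 7.23 without DC replicate 2, and 8.77 ± 0.76 SE in TDC (edgeR adjusted p = 2.25e-05), or 8.15 without TDC replicate 1.

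The ratio of the ITAM adaptors did not overlap between DC and TDC. The log2 ratio of Fcer1g to Tyrobp was -0.76, -1.13 and -0.98 in DC, 0.20, 0.33 and 0.13 in TDC, and 0.32, 1.01 and 0.63 in T. Tyrobp thus had the higher level in every DC library and Fcer1g in every TDC library. The TDC ratio exceeded that of DC by 1.18 (pooled SD 0.15, exact permutation p = 0.1, adjusted 0.133) and lay between 1.09 and 1.28 in every alternative run. DC lay 1.61 below T (exact permutation p = 0.1, adjusted 0.133), and TDC and T overlapped (difference -0.43, exact permutation p = 0.2, adjusted 0.24). Cd247, the CD3 zeta chain gene, whose product is an ITAM chain of the T cell receptor, averaged 423 ± 35.9 CPM in T, 1.43 ± 1.76 in DC and 8.4 ± 4.55 in TDC (SD, n = 3). The log2 ratio of Fcer1g to Cd247 averaged 7.79 in DC, 7.81 in TDC and -5.67 in T. DC and TDC overlapped (difference 0.02, exact permutation p = 1), with a sign that differed between alternatives, and T lay below DC by 13.5 and below TDC by 13.5 (both exact permutation p = 0.1, adjusted 0.133).

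Syk, the kinase that binds phosphorylated ITAMs, was present in DC and TDC and nearly absent from T. It stood at 0, 0 and 0.567 CPM in T, 202, 143 and 262 CPM in DC and 194, 721 and 382 CPM in TDC. TDC replicate 1 fell within the DC range and replicate 2 was the highest library. The difference between TDC and DC was not called (log2 fold change 1.10 ± 0.71 SE, edgeR adjusted p = 0.357), and was 0.46 without TDC replicate 2. Against T, where 11 reads in replicate 3 were all that was seen, the log2 fold change was 9.93 ± 1.09 SE in DC (edgeR adjusted p = 0.000109) and 11.03 ± 1.13 SE in TDC (edgeR adjusted p = 6.2e-05). These sizes depended on T replicate 3, without which Syk had no T read and the fits gave 14.73 and 15.83. Without T replicate 2 they were 9.32 and 10.42, and TDC against T was 10.43 without TDC replicate 2. Every such fit kept the call.

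Lyn, a Src family kinase that phosphorylates both ITAMs and ITIMs, had the narrowest spread of the 9 genes in TDC. It stood at 1.13, 0.988 and 0 CPM in T, 657, 374 and 462 CPM in DC and 845, 1094 and 924 CPM in TDC. Every TDC library exceeded every DC library, by a mean factor of 1.92, which was not called (log2 fold change 0.94 ± 0.64 SE, edgeR adjusted p = 0.387). DC and TDC exceeded T by 9.48 ± 0.94 SE (edgeR adjusted p = 5.93e-05) and 10.42 ± 0.97 SE (edgeR adjusted p = 3.58e-05) on the log2 scale, or 8.88 and 9.82 without T replicate 3.

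Relatives of Syk and Lyn were measured in the same libraries. Zap70, the T cell counterpart of Syk, stood at 55.5, 60.7 and 85.3 CPM in T, 0.574, 0.418 and 0 CPM in DC and 2.6, 2.56 and 3.73 CPM in TDC. The log2 ratio of Syk to Zap70 was -5.82, -5.95 and -5.78 in T, 7.01, 6.66 and 8.04 in DC and 5.76, 7.66 and 6.34 in TDC. DC lay 13.1 and TDC 12.4 above T (exact permutation p = 0.1, adjusted 0.133), and DC and TDC overlapped (TDC lower by 0.65 on average, exact permutation p = 0.4, adjusted 0.436), a difference whose size and sign depend on the pseudocount because Zap70 is near 0 in DC. Fgr, a myeloid Src family kinase gene, averaged 3.58 ± 1.18 CPM in T, 416 ± 86.9 in DC and 543 ± 63 in TDC (SD, n = 3) and was not called in TDC against DC (edgeR adjusted p = 0.466). TDC exceeded T 152-fold in Fgr (edgeR adjusted p = 2.35e-06).

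**Figure D3:**
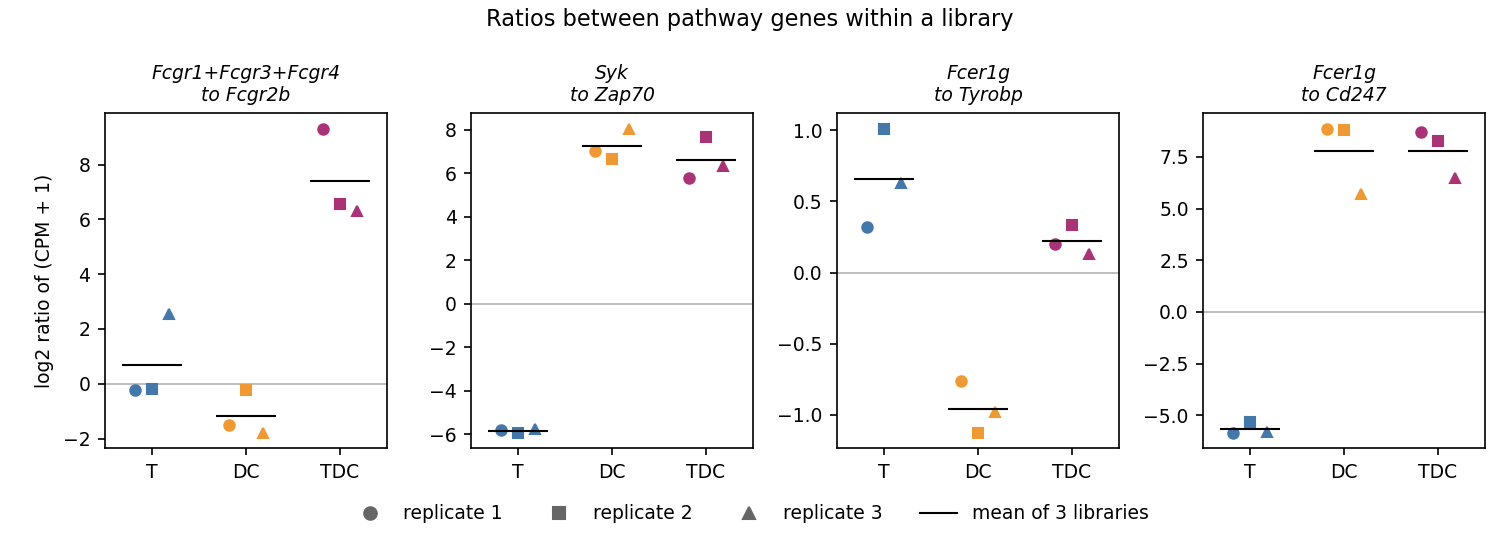
Log2 ratios of CPM, with 1 CPM added to each term, within each library (vertical axes differ between panels); symbols mark replicates and lines the mean of 3 libraries per group. Activating receptors to Fcgr2b and Fcer1g to Tyrobp separate TDC from DC, whereas Syk to Zap70 and Fcer1g to Cd247 separate T from both and overlap between DC and TDC.

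Around the members, the genes of the pathway were taken as lists. Src and Syk family kinases other than Syk and Lyn numbered 7, of which 6 were tested. In TDC against DC, 2 were higher and 0 lower (0 lower also at an unadjusted p under 0.05, by DESeq2 and by limma-voom), with a median log2 fold change of 1.61 (0.01 over all genes); against T, 3 were higher (Fgr and, named after their values were seen, Src and Blk) and 2 lower (Lck and Zap70). Over all genes, the shares called higher and lower were 9.55% and 4.60% in TDC against DC and 21.8% and 11.2% in TDC against T. The pair higher than in DC was Lck and Zap70, the T cell kinases. Lck stood at 1987, 2437 and 2613 CPM in T, 1.65, 1.6 and 0 CPM in DC and 54.2, 25.8 and 89.2 CPM in TDC (TDC against DC edgeR adjusted p = 0.00296, TDC against T 0.00124). Zap70 (edgeR adjusted p = 0.0182 against DC, 0.00091 against T) was no longer called against DC without TDC replicate 3 (0.0539) or without T in the fit (0.144). T cell markers were low but present in the same TDC libraries, at 197, 82.7 and 266 CPM in replicates 1, 2 and 3, the order in which Lck also stood, and their part in these calls was not tested.

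ITAM chains of the antigen receptors numbered 6. Of the 6, all tested, 3 were higher in TDC than in DC (Cd3d, Cd3e and Cd3g) by edgeR, and 5 by DESeq2 and by limma-voom. None was lower, with 0 also at an unadjusted p under 0.05 and by those tools, and against T 1 was higher (Cd79b) and 4 were lower. By edgeR, 9.55% of all genes were higher and 4.60% lower than in DC, and 21.8% higher and 11.2% lower than in T. Cd3e stood at 11.4, 4.96 and 10.7 CPM in TDC, 354 ± 36 CPM in T (SD, n = 3) and 0 in DC, at least 172-fold above DC (edgeR adjusted p = 0.000212) and 39.3 times below T (edgeR adjusted p = 5.96e-05). Cd3g, also without a DC read, averaged 29.6 ± 18.3 CPM in TDC (edgeR adjusted p = 0.000491 against DC, 0.000341 against T). Cd3d averaged 17.2 ± 10.4 CPM in TDC and 0.778 ± 1.03 in DC (edgeR adjusted p = 0.0125), a call lost without DC replicate 1 (0.0559), with no filter on low counts (0.0637) and without T in the fit (0.0649), and it was lower than in T (edgeR adjusted p = 0.00167). Cd247 was lower in TDC than in T (edgeR adjusted p = 0.00264) and not called against DC (0.112), but called without DC replicate 3 (0.0202), by DESeq2 (0.0447) and by limma-voom (0.0439). Cd79b, a chain of the B cell receptor, averaged 84.3 ± 24.9 CPM in TDC and 18.6 ± 8.16 in T (edgeR adjusted p = 0.00442), and its partner Cd79a stood at 8.79, 0.892 and 1.34 CPM in TDC. The CD3 and CD79 genes are also members of the T cell and B cell marker lists.

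Other Fc receptor genes were few. Of 13, 5 were tested and 0 were called in TDC against DC by edgeR, with 0 higher and 1 lower at an unadjusted p under 0.05 and likewise 0 higher and 1 lower by DESeq2 and by limma-voom. In TDC against T, 3 were higher: Fcrl1 and, named after their values were seen, Fcrla and Fcrlb. Genes called higher made up 21.8% of all genes in that comparison and 9.55% in TDC against DC, where 4.60% were lower. Fcrl1, an Fc receptor-like gene of B cells, averaged 154 ± 35.9 CPM in TDC, 100.5 ± 15.6 in DC and 2.41 ± 0.664 in T (TDC against T edgeR adjusted p = 4.34e-06). The high-affinity IgE receptor genes Fcer1a and Ms4a2, whose products also use the gamma chain, had no read in any of the 9 libraries.

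Receptors that signal through Tyrobp, Hcst or Fcer1g, or that carry a single ITAM-like motif, were listed together with the adaptor gene Hcst itself. This list held calls in both directions. Of 20, 18 were tested, and in TDC against DC 7 were higher and 2 lower, with a median log2 fold change of 1.56 (0.01 over all genes). Against T, 16 were higher and 2 lower, the latter Klrd1 and Hcst. The shares of all genes called higher and lower were 9.55% and 4.60% against DC and 21.8% and 11.2% against T. Clec4n, the gene of Dectin-2, a fungal mannan receptor that pairs with the gamma chain, stood at 4714, 2677 and 1876 CPM in TDC, 27, 28.2 and 3.1 CPM in DC and 2 reads in all of T. It was 159 times the DC level in TDC (log2 fold change 7.31 ± 0.94 SE, edgeR adjusted p = 0.000982). Treml4, a receptor gene of splenic myeloid cells that binds dead cells, had no T read, 154, 187 and 176 CPM in DC and 2681, 1942 and 1468 CPM in TDC, 11.8 times higher than in DC (edgeR adjusted p = 0.00059). For both genes every TDC library lay above every DC library.

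Clec1b, the gene of CLEC-2, averaged 256 ± 119.7 CPM in TDC and 2.77 ± 3.2 in DC (SD, n = 3; edgeR adjusted p = 0.0106), a call lost with no filter on low counts (0.118). Platelets also carry CLEC-2, the platelet markers reached 18.5 CPM at most in TDC, mainly Pf4, and their part in this result was not tested. Cd300ld averaged 384 ± 29.6 CPM in TDC and 67.3 ± 14.7 in DC (edgeR adjusted p = 0.00151). Clec4d averaged 14.9 ± 6.85 CPM in TDC and 0.283 ± 0.366 in DC (edgeR adjusted p = 0.0208), a call lost without DC replicate 1 (0.0756), TDC replicate 1 (0.0611) or TDC replicate 2 (0.0543). Clec9a, a dead-cell receptor of cross-presenting DC that is also on the DC marker list, was lower in TDC, at 14.9, 5.02 and 23.7 CPM against 87.2, 100.4 and 143 CPM in DC (edgeR adjusted p = 0.0118, 0.0551 without DC replicate 2 and TDC replicate 1). Klrd1, the gene of CD94, averaged 15.5 ± 15.3 CPM in TDC, 241 ± 112 in DC and 152 ± 37.9 in T (edgeR adjusted p = 0.00709 against DC, 0.00697 against T). Hcst, the gene of DAP10, an adaptor without an ITAM, averaged 30.8 ± 19 CPM in TDC, 13.5 ± 8.92 in DC and 157 ± 49.9 in T, lower in TDC than in T (edgeR adjusted p = 0.0128) and not called against DC (0.215).

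Of 28 genes downstream of Syk, 27 were tested, and in TDC against DC 4 were higher and 4 lower, with a median log2 fold change of -0.21 (0.01 over all genes). Against T, 13 were higher and 3 lower, the latter Lat, Tec and Rac2. Rac2 averaged 483 ± 78.4 CPM in TDC and 1937 ± 609 in T (SD, n = 3; edgeR adjusted p = 0.00145). Btk had no read in T, 126, 63.1 and 127 CPM in DC and 108, 115 and 106 CPM in TDC (TDC against DC edgeR adjusted p = 0.95; at least 1970.3-fold above T, 5.95e-06). Plcg2, the phospholipase C gamma of myeloid and B cells, overlapped between DC and TDC, at 242, 77.6 and 373 CPM and 49.6, 241 and 156 CPM (edgeR adjusted p = 0.639). Gab2 averaged 50.2 ± 31.2 CPM in TDC and had no read in T (edgeR adjusted p = 0.000122).

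Blnk, the adaptor that links Syk to phospholipase C gamma, had no read in T, 6.39, 6.41 and 3.58 CPM in DC and 189, 161 and 138 CPM in TDC. It was 29.8 times the DC level in TDC (log2 fold change 4.89 ± 0.41 SE, edgeR adjusted p = 0.000297), with no overlap. Its relative Lcp2 (SLP-76) averaged 836 ± 113 CPM in TDC, 413 ± 56.8 in DC and 426 ± 54.4 in T (edgeR adjusted p = 0.0285 against DC, 0.0177 against T). Lcp2 was all higher in TDC but its call was fragile: against DC it was lost without any 1 of the DC or TDC libraries (0.0506 to 0.121), under library-size scaling (0.101) and upper-quartile factors (0.052), with no filter (0.0813) and without T in the fit (0.061). Against T the call was lost under library-size scaling (0.30, log2 fold change 0.36 in place of 0.97), upper-quartile factors (0.0584) and no filter (0.0599), and without T replicate 1 (0.0688), T replicate 2 (0.0561) or TDC replicate 2 (0.0696). Lat, a T cell signalling gene, was also higher in TDC than in DC. It averaged 27.1 ± 13.4 CPM in TDC and 1208 ± 287 in T with 3 reads in all of DC (edgeR adjusted p = 0.000161 against DC, 6.21e-05 against T). Lat is itself on the T cell marker list. Sh3bp2, a Syk-binding adaptor gene, averaged 203 ± 19.6 CPM in TDC and 51.2 ± 13.6 in DC (edgeR adjusted p = 0.0027).

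The genes lower in TDC than in DC included Card9 and Malt1, whose products form, with BCL10, a complex that links ITAM receptors to NF-kappaB. Bcl10 itself was not called (179.6 ± 60.9 CPM in DC and 119 ± 41.4 in TDC, SD, n = 3, edgeR adjusted p = 0.33). Malt1 stood at 264, 238 and 344 CPM in DC and 11, 26.6 and 48.3 CPM in TDC, 9.84 times lower (log2 fold change -3.30 ± 0.52 SE, edgeR adjusted p = 0.00257; -3.94 without TDC replicate 3). TDC replicate 1 was the lowest library. Card9, which carries signals of Dectin receptors, stood at 27.9, 16.4 and 9.84 CPM in DC and 2.06, 0.669 and 3.28 CPM in TDC (edgeR adjusted p = 0.0428), but its call was lost without T replicate 1 or 2, DC replicate 1 or 2 or any TDC library (0.0524 to 0.139). Tec, a kinase of the Btk family, stood at 49.7, 33.9 and 26.7 CPM in DC and 0.628, 4.68 and 4.62 CPM in TDC, 11.1 times lower (edgeR adjusted p = 0.00824), and was also lower than in T (edgeR adjusted p = 0.00235). Lat2, an adaptor gene related to Lat, averaged 7.68 ± 3.66 CPM in TDC and 69.3 ± 25.6 in DC (edgeR adjusted p = 0.00908).

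**Figure D4:**
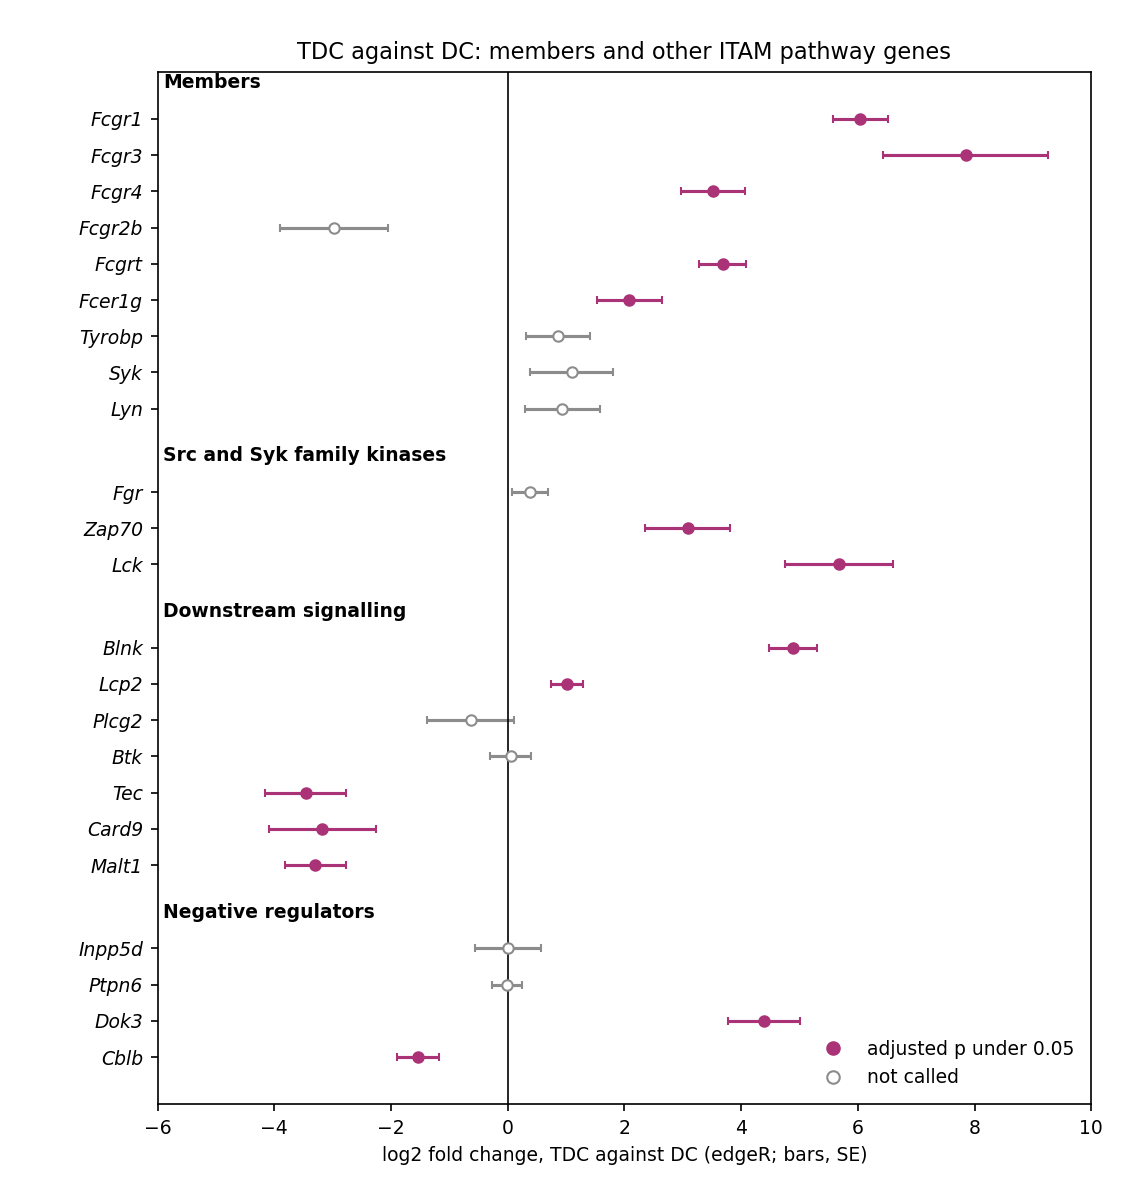
Fitted log2 fold change of TDC against DC (horizontal axis; bars, SE) for the 9 genes and for named genes of 3 pathway lists; filled points had an adjusted p under 0.05. Activating receptors, Fcgrt, Fcer1g, Blnk and Dok3 lie to the right, Card9, Malt1 and Tec to the left, and Btk, Inpp5d and Ptpn6 at 0.

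**Figure D5:**
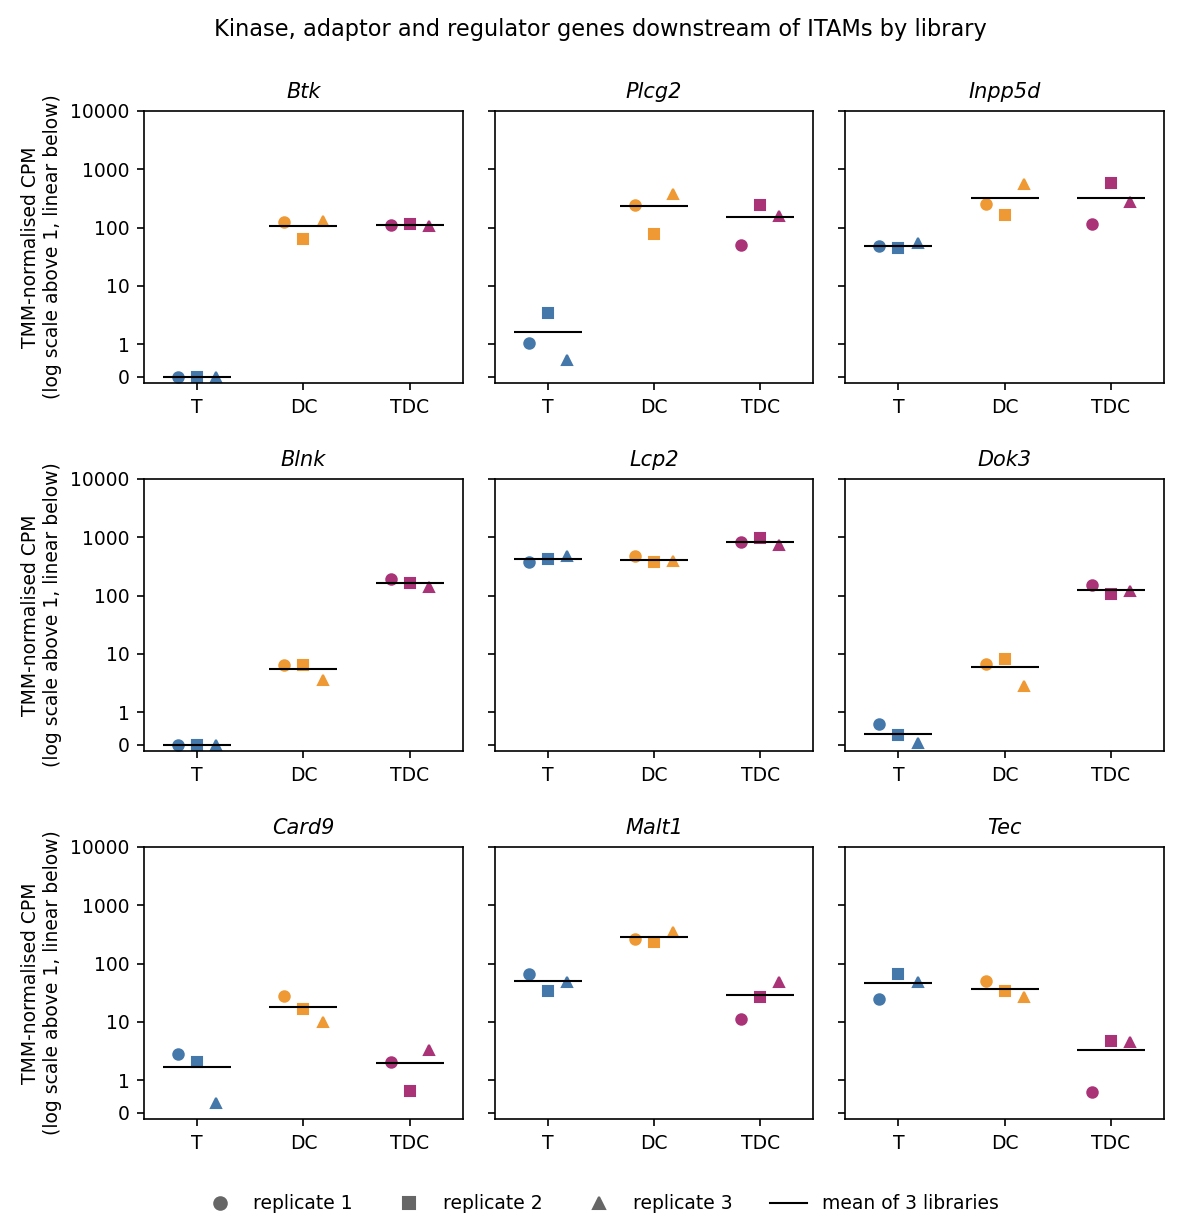
TMM-normalised CPM (vertical axis, logarithmic above 1 CPM and linear below) of 9 genes downstream of ITAMs in each library; symbols mark replicates and lines the mean of 3 libraries. Btk, Plcg2 and Inpp5d overlap between DC and TDC, Blnk, Lcp2 and Dok3 are highest in TDC, and Card9, Malt1 and Tec are lower in every TDC library than in every DC library.

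Negative regulators of ITAM signalling numbered 19, all tested. In TDC against DC, 3 were higher (Dok2, Dok3 and, named after its values were seen, Ubash3a) and 1 was lower (Cblb), 4 in all where 14.1% of all genes were called. The median log2 fold change was 0.15 (0.01 over all genes), and against T 7 were higher and 3 lower. Shares of all genes in TDC against T were 21.8% higher and 11.2% lower. Inpp5d, the gene of SHIP-1 that acts under Fcgr2b, stood at 255, 162 and 549 CPM in DC and 116, 577 and 274 CPM in TDC, with means of 322 and 322 CPM (edgeR adjusted p = 1.0). Ptpn6, the gene of SHP-1, stood at 1156, 935 and 987 CPM in DC and 989.9, 924 and 1127 CPM in TDC (edgeR adjusted p = 0.98). Both overlapped between the groups, and neither was called. Dok3, an adaptor that dampens ITAM signals, stood at 6.66, 8.29 and 2.86 CPM in DC and 151, 105 and 117 CPM in TDC, 21 times higher (log2 fold change 4.39 ± 0.61 SE, edgeR adjusted p = 0.00141; against T 2.73e-05). Dok2 averaged 87.5 ± 36.9 CPM in TDC and 213 ± 22.7 in T, with 8 reads in all of DC (edgeR adjusted p = 0.000196 against DC). Cblb, a ubiquitin ligase gene, averaged 14 ± 4.94 CPM in TDC, 40.9 ± 7.37 in DC and 54.6 ± 7.21 in T (edgeR adjusted p = 0.0183 against DC, 0.0524 without DC replicate 3, and 0.00254 against T).

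Against T, the regulators with the largest increases after Dok3 were Ptprj, a receptor phosphatase gene, at 119 ± 61.4 CPM in TDC and 0.60 ± 0.685 in T (edgeR adjusted p = 0.000112), and Inppl1 at 28.2 ± 23.8 and 0.854 ± 0.793 CPM (edgeR adjusted p = 0.00318). Inppl1 was highest in TDC replicate 2, without which the log2 fold change fell from 5.03 to 4.08, and without T replicate 3 it was 6.14. The regulators of T cell signalling Ubash3a and Sla2 were lower in TDC, at 4.46 ± 1.99 and 2.66 ± 1.63 CPM against 121 ± 22.7 and 113 ± 31.7 CPM in T (edgeR adjusted p = 0.000185 and 0.00245).

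The spread of the members within a group was itself uneven. In TDC, replicate 1 had the highest level of 6 members (Fcgr1, Fcgr3, Fcgr4, Fcgrt, Fcer1g and Tyrobp) and the lowest of the other 3 (Fcgr2b, Syk and Lyn). Replicate 3 had the lowest level of those 6. In DC, replicate 2 was highest for Fcgr4, Fcgrt, Fcer1g and Tyrobp and lowest for Fcgr2b, Syk and Lyn. Ribosomal protein genes took 0.933%, 0.458% and 0.675% of reads in TDC replicates 1, 2 and 3 and 1.55%, 2.53% and 1.13% in DC, so that both libraries named were also the highest of their group in that share. The coefficient of variation over the TDC libraries ran from 13.3% for Lyn to 63.4% for Tyrobp. With TDC replicate 1 and DC replicate 2 both left out, an alternative chosen after seeing the data, 5 of 9 members were called in TDC against DC.

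Across the 9 libraries, the Pearson correlation of log2(CPM + 1) was highest between Fcgr1 and Fcgrt (0.989), followed by Syk and Lyn (0.987), Fcer1g and Tyrobp (0.986) and Fcgr4 and Fcer1g (0.984). Fcgr2b had -0.02 to Fcgr3, 0.19 to Fcgr1, 0.25 to Fcgrt and 0.48 to Fcgr4, and 0.60 to Fcer1g, 0.71 to Tyrobp, 0.75 to Syk and 0.76 to Lyn. These values are descriptions, since the libraries fall into 3 groups whose differences enter every value, and correlation within a group was not computed. Among 9503 other genes with at least 10 CPM on average in a group, the 3 most like Fcgr1 were Pilra, Hmox1 and Spic (Pearson 0.996 to 0.997), the last a transcription factor gene of red pulp macrophages. Those most like Fcgr3 were Pgpep1, Clcc1 and C1qb, and those most like Fcgr4 were Nupr1, Il18 and Adssl1. Creg1, Pparg and Pilrb1 were most like Fcgrt. The genes most like Fcgr2b were Kit, Gcnt2 and Ptgs2 (0.980 to 0.987), which averaged 161, 88.2 and 326 CPM in DC and 13.3, 10.6 and 17.6 CPM in TDC. Clec4a2, Clec4b1 and Ear2 were most like Fcer1g, Rnf130, Sh2d1b1 and Cd300c2 most like Tyrobp, Tnfrsf11a, Tgm2 and Tifa most like Syk, and Pirb, Tifa and Fgr most like Lyn.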

How the data were processed

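RNA of 9 libraries (T, DC and TDC, 3 each) was measured by QuantSeq, which reads near the 3′ end, per the labels. The deposited values are whole-number read counts per gene, not normalised. The submitters' processing notes list STAR, featureCounts, Trimmomatic, FastQC and MultiQC, without versions, and name the build hg38, although the samples and symbols are mouse. No source used here gives the annotation or the strand setting. Loci come from GENCODE M21, which held 94.3% of the symbols. Of the rows, 23670 had no read and 26 symbols had been turned into dates.

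Counts were tested with edgeR 4.0.16 (R 4.3.3): filterByExpr (minimum count 10, total 15), TMM, a quasi-likelihood fit of the 3 groups with the robust option (6 residual degrees of freedom, common biological coefficient of variation 0.588) and Benjamini-Hochberg adjustment over 14708 genes at 0.05. Genes kept held 99.8% or more of each library. SE was the log2 fold change divided by the square root of F. The fit was also run on simulated counts in which only a small set of genes changed, in TDC alone. These data hold far more differences, so that run does not show how the fit behaves here. Ratios used CPM plus 1 and exact two-sided permutation tests. Alternatives were other scalings and filters, DESeq2 1.42.0, limma-voom (limma 3.58.1), fits of 2 groups alone, a block for the replicate number, other pseudocounts and leaving out each library. No sample was left out otherwise. No library repeated another within sampling noise: chi-square values per degree of freedom within groups ran from 67.9 to 275.

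The members and lists were chosen with earlier results of these data known. Named genes were the members, 14 fixed pathway genes, and up to 3 called genes per list and direction with the largest fold change, no overlap and a higher mean of 10 CPM or more, in TDC against T and against DC. The 3 genes most like each member were those with the highest Pearson correlation over the 9 libraries, leaving out clone-based names and receptor gene segments. Protein sequences were not used here, and 3 genes of the lists are not reported here and stand outside the list counts.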

Additional observations from a re-analysis of the deposited data

How the results depend on the processing

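Over 513 refits of the 27 member comparisons, 497 kept direction and side of the threshold, 8 lost a call, 6 gained one and 2 reversed; the exceptions concern Fcgr2b, Fcgr3 and Fcer1g, with values in the report except that Fcgr2b in TDC against DC was also called with upper-quartile factors (edgeR adjusted p = 0.0463), a 10 CPM filter (0.0413) and DC and TDC alone (0.0192), and in TDC against T was lost with no filter (0.0586). Fcgr3 in DC against T reversed to -0.51 with limma-voom and ran from -0.031 to 2.22 without single libraries. Members called ranged from 4 to 6 in TDC against DC, 8 to 9 in TDC against T and 8 in DC against T throughout. The replicate number was also added as a block: the replicate block left 5, 9 and 8 members called and 1486 genes in TDC against DC in place of 2081. Same-numbered libraries share a name prefix and a pool size, but the labels do not say that they come from the same pool. Their deviations correlated at 0.0658 to 0.363 between T and DC, -0.255 to 0.0386 between T and TDC and -0.529 to 0.132 between DC and TDC, not all above 0.1, so they were treated as unpaired. The ratios had a smallest p of 0.25 in that pairing. Of the other named genes, the block lost Card9 (edgeR adjusted p = 0.105) and Lcp2 against DC (0.0737).

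With library-size scaling, all-gene medians moved from 0.01 to -0.27 (TDC against DC), 0.14 to -0.47 (TDC against T) and 0.08 to -0.21 (DC against T), and the share of calls that were higher moved from 67.5% to 53.1%, 66% to 42.9% and 64.7% to 50.2%. Upper-quartile factors moved the first pair of medians to -0.12 and -0.11. DESeq2 called 3249 genes in TDC against DC, and leaving out TDC replicate 2 left 1190.

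Fold changes near 0 changed sign in TDC against DC. Btk was -0.076 with upper-quartile factors, -0.29 with library size, -0.028 with the 10 CPM filter, -0.28 to 0.21 without single libraries and -0.17 without DC replicate 2 and TDC replicate 1 together, an alternative chosen after seeing the data. Inpp5d was -0.014 with DESeq2 size factors, -0.16 with upper-quartile factors, -0.36 with library size, -0.11 with the 10 CPM filter, -0.014 by DESeq2, -0.072 by limma-voom, -0.027 with 2 groups, -0.061 with the replicate block and -0.78 to 0.63 without single libraries. Ptpn6 ran from -0.15 to 0.085 without single libraries.

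With 0.1 CPM added in place of 1, Syk to Zap70 was 17.7 for DC against T, 15.4 for TDC against T and -2.27 for TDC against DC, and Fcer1g to Cd247 was 15.2 for DC against T and -1.33 for TDC against DC. With 5 CPM, Syk to Zap70 was 9.02, 9.37 and 0.35, and Fcer1g to Cd247 was 11.3 for DC against T and 12.3 for TDC against T. Leaving out single libraries gave -1.02 to 0.69 for Fcer1g to Cd247 in TDC against DC. Depth limits values near 0.06 CPM, and 3 libraries a group hold exact permutation tests of ratios at p = 0.1 or above.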
